A study of Homo sapiens with 6 samples.

Results

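KRTAP2-3, SORCS2, CPA4 and SMIM11 are 4 of the 25662 gene symbols measured in HCT116, an established human colorectal carcinoma line, and were selected on their TPM in these same libraries, as genes much higher after BMH-21, a DNA-intercalating inhibitor of RNA polymerase I. Their values are therefore a description, with no test. There were 3 control libraries (DMSO) and 3 BMH-21 libraries (1 µM, 24 h). The titles of the control libraries say 0 h, and if they were taken at the start, the drug and the hours in culture cannot be told apart. Levels are TPM, the share of a library's transcripts after correction for transcript length, so levels of different genes can be compared, but fewer transcripts per cell and fewer cells with the transcript cannot be told apart. Read depth is unknown. Mitochondrial genes held 20.3% to 26.1% of TPM, with the highest shares in control replicate 1 (25.8%) and BMH-21 replicate 3 (26.1%).

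The 4 genes belong to unrelated families. KRTAP2-3 encodes a keratin-associated protein, one of the small cysteine-rich proteins that fill the space between keratin filaments in the hair shaft. SORCS2 encodes a sorting receptor of the VPS10P family, known mainly from neurons, where it pairs with the p75 receptor (NGFR) to bind neurotrophin precursors such as that of BDNF. CPA4 encodes a secreted carboxypeptidase of the M14 family, which trims single amino acids from the C-terminal end of peptides once its own propeptide has been removed. SMIM11 encodes a short membrane protein whose function is little described. A colon epithelial line is not the usual place for hair shaft or neuronal genes, and the table was searched for other markers of those tissues.

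The sequences that bear on how each value was read come first. KRTAP2-3 lies on chromosome 17 (GRCh38 chr17:41059240-41060114, minus strand), in a row of 4 KRTAP2 genes, and its transcript has 1 exon. The coding sequence of KRTAP2-3, 384 bases without its stop codon, differs at 1 base from that of KRTAP2-4 (99.7% identity) and at 2 bases from that of KRTAP2-1 (99.5%). The differences are shown as GENCODE release 29 gives the transcripts, with capitals at the bases that differ between the genes. Bases 1 to 60 of the coding sequences, counted from the A of the start codon, hold the first of them.
KRTAP2-3: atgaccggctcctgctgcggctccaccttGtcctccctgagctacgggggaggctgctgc
KRTAP2-4: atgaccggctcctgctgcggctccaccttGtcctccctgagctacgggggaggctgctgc
KRTAP2-1: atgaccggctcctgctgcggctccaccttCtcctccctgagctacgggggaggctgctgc
KRTAP2-2: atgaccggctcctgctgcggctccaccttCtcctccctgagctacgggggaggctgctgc
The sixth block of 60 bases holds the other one, and here KRTAP2-2 also lacks 15 bases that the other genes have, starting at position 319.
KRTAP2-3: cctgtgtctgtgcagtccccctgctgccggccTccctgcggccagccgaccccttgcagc
KRTAP2-4: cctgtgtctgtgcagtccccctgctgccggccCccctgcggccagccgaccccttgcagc
KRTAP2-1: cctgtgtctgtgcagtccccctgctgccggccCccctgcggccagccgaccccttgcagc
KRTAP2-2: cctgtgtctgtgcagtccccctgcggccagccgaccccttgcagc
Written from KRTAP2-3 to its relatives, these are T333C in KRTAP2-4, G30C and T333C in KRTAP2-1, and G30C in KRTAP2-2. Outside the coding part the transcripts differ more. Of the 845 stretches of 31 bases in the KRTAP2-3 transcript, 366 (43.3%) also occur in a transcript of another gene, 364 of them in KRTAP2-4.

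SMIM11 is the extreme case. GENCODE release 29 places it on chromosome 21 at chr21:34375480-34407866 and places a second copy, SMIM11B, near the start of the same chromosome at chr21:7744962-7777853. The coding sequence of 174 bases is the same in both copies, with 0 bases that differ.
SMIM11: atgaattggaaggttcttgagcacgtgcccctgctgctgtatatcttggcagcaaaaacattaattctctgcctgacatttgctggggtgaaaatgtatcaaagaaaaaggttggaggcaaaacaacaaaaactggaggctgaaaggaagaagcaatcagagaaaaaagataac
Of 4222 stretches of 31 bases in the 7 annotated SMIM11 transcripts, 4209 (99.7%) also occur in another gene, and 3933 (93.2%) occur in SMIM11B. The annotation behind the deposited values is not given in the sources used here, so whether reads were shared between SMIM11 and SMIM11B is unknown. By contrast, none of the 6331 such stretches of SORCS2 occurs in another gene (0%), and for CPA4 it is 180 of 4061 (4.4%).

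Before BMH-21 the 4 genes were low, and SORCS2 was close to 0. KRTAP2-3 was at 5.58, 4.46 and 4.10 TPM in control replicates 1 to 3 and at 65.48, 70.84 and 86.32 TPM after BMH-21. The groups were far apart: the lowest treated library was 11.7 times the highest control. The mean went from 4.71 ± 0.77 to 74.2 ± 10.8 TPM (SD, n = 3), a 15.7-fold difference. On the log2(TPM + 1) scale, which damps differences of genes with low values, its log2 fold change was 3.72.

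SORCS2 was at 0.11, 0.10 and 0.10 TPM in controls and at 5.96, 7.04 and 8.85 TPM after BMH-21. The means were 0.103 ± 0.011 and 7.29 ± 1.46 TPM (SD, n = 3), a ratio of 71.0, with a log2 fold change of 2.90. This is a change from a level near the floor to a modest level, not to a high one: by treated mean it ranked 7221 of the 12041 genes that passed the filter on low values. That filter asked for at least 1 TPM in at least 3 libraries, and SORCS2 passed it through the treated libraries alone.

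CPA4 was the most abundant of the 4 in controls, at 6.25, 7.57 and 6.93 TPM, and reached 50.51, 47.62 and 58.97 TPM after BMH-21. Its mean went from 6.92 ± 0.66 to 52.4 ± 5.90 TPM (SD, n = 3), a 7.57-fold difference and a log2 fold change of 2.75. It also varied least within groups, with coefficients of variation of 9.54% in controls and 11.3% after BMH-21.

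SMIM11 was at 0.65, 0.87 and 0.67 TPM in controls and at 8.51, 14.19 and 13.42 TPM after BMH-21. The mean went from 0.73 ± 0.13 to 12.0 ± 3.08 TPM (SD, n = 3), a ratio of 16.5 and a log2 fold change of 2.89. Replicate 1 was the lowest of the treated libraries, and SMIM11 had the widest relative spread of the 4 after BMH-21 (coefficient of variation 25.6%). Like SORCS2, it reached 1 TPM in 0 of 3 control libraries and in 3 of 3 treated ones.

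**Figure D1:**
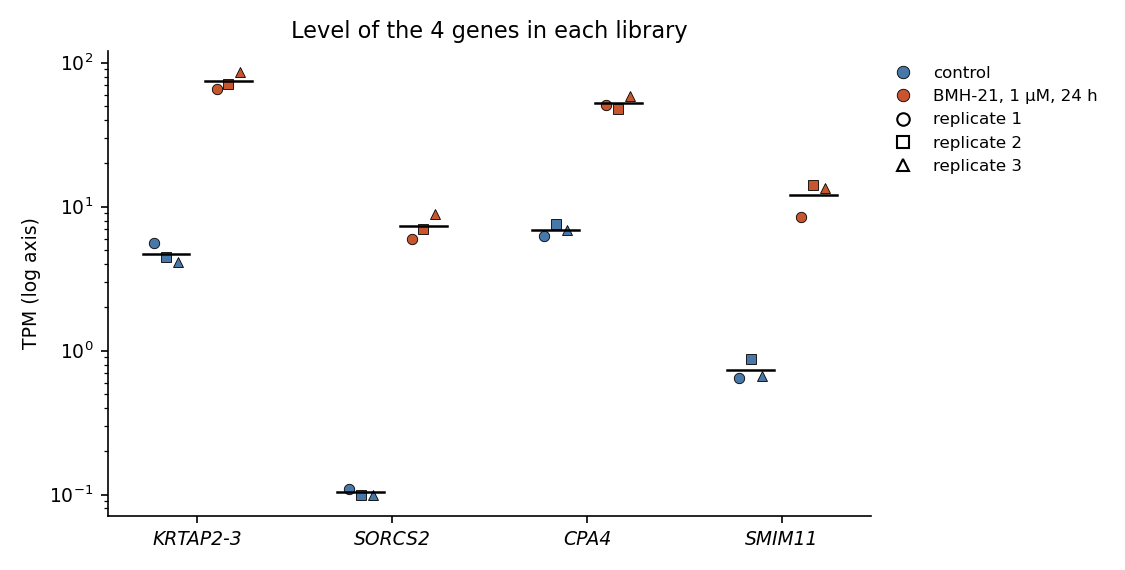
Level of KRTAP2-3, SORCS2, CPA4 and SMIM11 in each library, in TPM on a log axis; points are libraries (n = 3 per group), shapes are replicate numbers and bars are group means. For each gene all 3 BMH-21 libraries lie above all 3 controls, and SORCS2 starts from about 0.10 TPM.

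The order of the 4 levels differed between the groups. In controls CPA4 was highest, followed by KRTAP2-3, SMIM11 and SORCS2, and no neighbours in that order overlapped. After BMH-21 KRTAP2-3 was highest, followed by CPA4, SMIM11 and SORCS2. KRTAP2-3 and CPA4 did not overlap there, whereas the lowest SMIM11 library (8.51 TPM) lay under the highest SORCS2 library (8.85 TPM). For 3 of the 4 genes, SMIM11 being the exception, BMH-21 replicate 3 was the highest library. That library also stood apart from its group over all genes, with a mean squared deviation of 0.0696 on the log2 scale against 0.0289 and 0.0331 in the other treated libraries. Without it the log2 fold changes were 3.6 for KRTAP2-3, 2.76 for SORCS2, 2.66 for CPA4 and 2.80 for SMIM11.

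All 4 genes had groups that did not overlap, with BMH-21 higher, as did 29.6% of the 12041 genes kept and 17.1% of all rows of the table. The choice of the genes fixes this count. By log2 fold change they ranked 2 (KRTAP2-3), 6 (SORCS2), 7 (SMIM11) and 8 (CPA4) of the genes kept. Rank 1 was the 5.8S ribosomal RNA row (5_8S_rRNA), whose control mean was 0.455 TPM and whose treated mean was 50.5 TPM, although it was listed at 0 in BMH-21 replicate 1. Between KRTAP2-3 and SORCS2 came CDKN1A (3.40), MDM2 (3.12) and F3 (3.04). By the ratio of means, where TUBBP5 came first because it was listed at 0 in controls, the order changed, to rank 3 for SORCS2, 6 for SMIM11, 8 for KRTAP2-3 and 23 for CPA4. With a pseudocount of 0.1 SORCS2 ranked 1 (log2 fold change 5.17), and with a pseudocount of 5 it ranked 93 (1.26), so its place depends on how low values are treated.

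**Figure D2:**
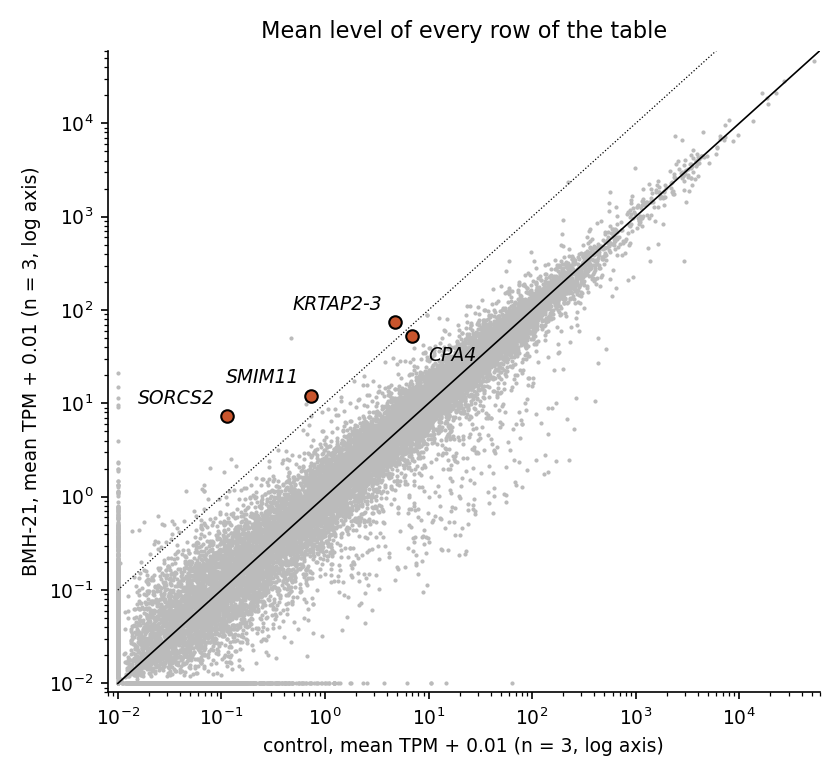
Mean TPM after BMH-21 against mean TPM in controls for each of the 25662 rows, with 0.01 added, on log axes; the solid line marks equal means and the dotted line a 10-fold higher mean after BMH-21. KRTAP2-3, SORCS2 and SMIM11 lie above the dotted line and CPA4, at 7.57-fold, just under it.

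A move from under 1 TPM to at least 5 TPM was uncommon in that direction. It was seen in 7 rows whose groups did not overlap, SORCS2 and SMIM11 among them, whereas 72 rows went the opposite way. Others among them were LY6D, BTBD19 and RRAD, named after their values were seen. LY6D, a GPI-anchored surface protein of epithelia, went from 0.932 to 8.08 TPM. Of rows whose groups did not overlap, SORCS2 was the sole one to go from under 0.2 TPM to at least 5 TPM, against 8 that went from at least 5 TPM to under 0.2 TPM.

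The genes most like each of the 4 were found by the distance between log2(TPM + 1) profiles over the 6 libraries, each centred on its own mean. All such neighbours share the group difference, so this is a description of size and spread. CDKN1A, which encodes the cell cycle inhibitor p21, was nearest to KRTAP2-3 (distance 0.50), followed by SORCS2 (1.04) and F3, which encodes tissue factor (1.09). SORCS2 and CPA4 were close to each other (0.35), and SORCS2 and SMIM11 nearly as close (0.38). For CPA4 the nearest was H2BC5, a histone H2B gene (0.21), and others near it were ZBED2, which encodes a zinc finger protein (0.28), and C1orf116 (0.31). For SMIM11 the nearest were SORCS2, CPA4 (0.57) and C1orf116 (0.57), and KRTAP2-3 was far from the other members, at 1.04 to 1.26.

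The KRTAP2 relatives stayed low, so the rise in this row of genes was read almost wholly as KRTAP2-3. KRTAP2-1 was at 0, 0.32 and 0 TPM in controls and at 1.53, 0.38 and 1.49 TPM after BMH-21. KRTAP2-2 was at 0.42, 0.11 and 0.49 TPM and then at 1.45, 0.83 and 1.12 TPM. KRTAP2-4, whose coding sequence differs from that of KRTAP2-3 at 1 base, was listed at 0 in 5 libraries and at 0.35 TPM in BMH-21 replicate 2. None of these 3 passed the filter, though KRTAP2-1 and KRTAP2-2 were higher in all 3 treated libraries. KRTAP2-3 made up 89.3% to 93.0% of the summed TPM of the 4 genes in controls and 95.6% to 97.8% after BMH-21. With the 4 summed, the log2 fold change was 3.65 in place of 3.72. Since the coding parts are nearly the same, reads from them can be assigned to 1 gene mainly through the parts outside the coding sequence, and how reads were divided was not tested.

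Other hair shaft genes were at or near the floor. The table held 25 keratin-associated protein genes beside KRTAP2-3. Only 1 passed the filter, and 6 were at 0 in every library. That gene was KRTAP3-1, which lies 39.9 kb from KRTAP2-3 in the same cluster. It was at 0.52, 0.48 and 0.16 TPM in controls and at 2.0, 3.14 and 2.31 TPM after BMH-21, with means of 0.386 ± 0.20 and 2.48 ± 0.59 TPM (SD, n = 3). The groups did not overlap, but it passed the filter through the treated libraries alone and had to differ, so no test is given. Of 17 hair keratin genes, which encode the filaments that KRTAP proteins embed, only KRT32 passed the filter. Its mean was 0.782 ± 0.15 TPM in controls and 1.61 ± 0.26 TPM in treated libraries (SD, n = 3), and it too passed through the treated libraries alone. The summed level of the 17 hair keratins was 1.16 to 1.57 TPM in controls and 2.63 to 3.23 TPM after BMH-21, under the level of KRTAP2-3 alone in both groups. The keratins of simple epithelia were far higher and also rose. KRT8, for example, went from 2813 ± 129 to 6586 ± 484 TPM and KRT19 from 995 ± 25.1 to 3292 ± 207 TPM, and 6 of 10 epithelial and colorectal markers were at 1 TPM or more in every library. Of these 6, 5 were called higher, where 19.4% of genes kept were. The remaining one, CDH1, was at 21.6 ± 2.69 and 21.4 ± 6.63 TPM and was not called (limma adjusted p = 0.88). The other 4, VIL1, LGALS4, CEACAM5 and CEACAM6, were under 0.4 TPM throughout, with LGALS4 at means of 0.258 and 0.0115 TPM. The summed markers were 5143 to 5377 TPM in controls and 11423 to 13010 TPM after BMH-21, most of it KRT8, KRT18 and KRT19.

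Around SORCS2, its receptor partner and its ligand moved in opposite directions. NGFR, which encodes the p75 receptor, fell, with means of 6.07 ± 0.22 and 3.35 ± 0.33 TPM (SD, n = 3), a difference of -0.70 on the log2 scale (SE 0.15, limma, adjusted p = 0.0062). BDNF, which encodes a neurotrophin made as a precursor, rose, with means of 4.81 ± 0.72 and 10.4 ± 0.99 TPM (log2 fold change 0.97, adjusted p = 0.0018). The convertases that cut such precursors were mixed: FURIN rose by 0.70 (adjusted p = 0.0012) and PCSK7 by 0.55 (adjusted p = 0.015), while PCSK5 and PCSK6 were at 0.04 and 0.05 and were not called. In all, 3 of 9 genes of this list that passed the filter were higher and 2 lower, where 19.4% of genes kept were called higher and 16.9% lower, and their median log2 fold change of 0.05 was near that of all genes, 0.06.

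The other receptors of the VPS10P family were lower, not called or near 0. SORT1, which encodes sortilin, fell, with means of 8.05 ± 1.72 and 4.87 ± 0.79 TPM (SD, n = 3), a difference of -0.62 on the log2 scale (limma, adjusted p = 0.035). That call was lost without control replicate 2 or 3 or BMH-21 replicate 1 or 2, with an adjusted p of 0.1 to 0.13. SORL1, a sorting receptor of endosomes, was at 3.30 ± 0.81 and 4.6 ± 1.56 TPM and was not called (adjusted p = 0.25). SORCS1 reached 0.01 TPM in 1 library and SORCS3 was listed at 0 in all 6. NTRK2 and NTRK3, which encode high-affinity neurotrophin receptors, stayed at 0.12 TPM or less. NTF4, which encodes neurotrophin-4, was at 1.11 ± 0.03 and 0.953 ± 0.33 TPM (adjusted p = 0.58). PCSK7 lost its call without BMH-21 replicate 1 (adjusted p = 0.054). Markers of neurons were low, with a sum over 7 genes of 2.85 to 4.32 TPM in controls and 2.91 to 5.39 TPM after BMH-21, most of it SYT1. The sum over 7 fibroblast markers was 3.79 to 4.89 TPM in controls and 1.88 to 3.73 TPM after BMH-21. Most of it was COL1A1, with means of 4.04 and 2.34 TPM. The sum over 5 leukocyte markers was 3.66 to 4.65 and 0.625 to 1.24 TPM. Its fall was mostly that of CD68, with means of 3.61 and 0.522 TPM. What part RNA of other cell types has in the values of the 4 genes was not tested.

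CPA3, CPA5 and CPA6, carboxypeptidases of the pancreatic type to which CPA4 belongs, were at or near 0. CPA5, 20.6 kb from CPA4, did not exceed 0.07 TPM, and CPA3 and CPA6 were listed at 0. The sum of 6 pancreatic acinar markers was 0.354 to 0.755 TPM in controls and 0.978 to 1.34 TPM after BMH-21, most of it CEL. Members of the family with other tasks were present. CPE, which trims prohormones, rose, with means of 19.8 ± 3.43 and 33.0 ± 2.48 TPM (SD, n = 3), a difference of 0.72 on the log2 scale (SE 0.14, limma, adjusted p = 0.0043). AGTPBP1, which removes glutamates from tubulin tails, had a log2 fold change of 0.46 (adjusted p = 0.029). That call was lost without BMH-21 replicate 1 or 2 or any 1 control library (adjusted p = 0.059 to 0.11). AGBL5, CPD and CPM, at 0.13, -0.07 and -0.17, were not called. Beside CPA4, 2 of 5 family genes that passed the filter were higher and 0 lower, where 19.4% of genes kept were higher and 16.9% lower. Their median log2 fold change was 0.13, against 0.06 over all genes.

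**Figure D3:**
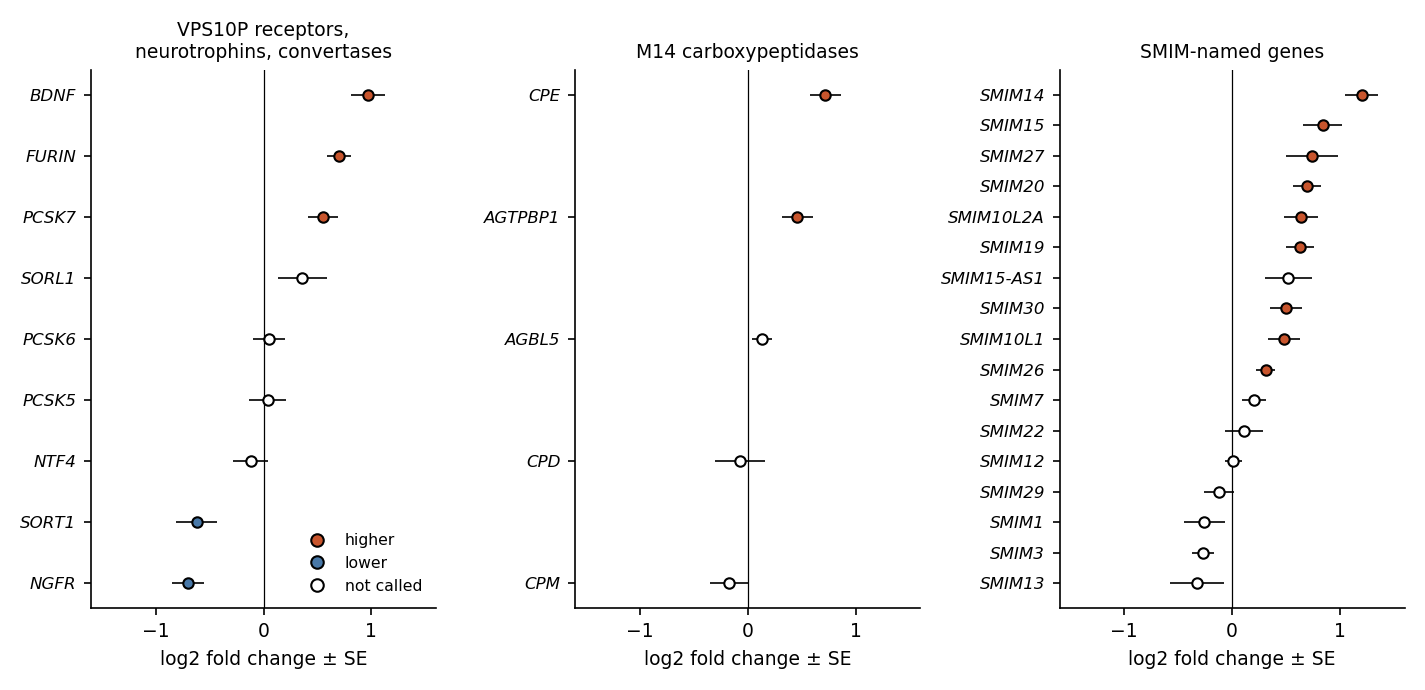
Log2 fold change on the log2(TPM + 1) scale, with its standard error (n = 3 per group), for genes of the 3 lists that passed the filter; colours mark limma calls at an adjusted p under 0.05. BDNF, at 0.97, SMIM14, at 1.2, and CPE, at 0.72, are the highest of their lists, and none comes near the values of 2.75 to 3.72 of the 4 genes described here.

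The SMIM symbols stand for small integral membrane proteins, which need not share an origin, and the list of them also holds noncoding genes such as the antisense RNA SMIM15-AS1. Of 36 listed genes in the table beside SMIM11, 17 passed the filter, of which 9 were higher and 0 lower, with a median log2 fold change of 0.48 against 0.06 over all genes and 19.4% of all genes kept called higher. SMIM14 rose most, with means of 6.67 ± 1.01 and 16.6 ± 1.75 TPM (SD, n = 3), a difference of 1.2 on the log2 scale (SE 0.15, limma, adjusted p = 0.00043). SMIM15, SMIM27 and SMIM20, the last an assembly factor of respiratory complex IV, followed at 0.84, 0.74 and 0.69. The call of SMIM27 (limma adjusted p = 0.042) was lost without control replicate 1 or 2 or any 1 BMH-21 library (adjusted p = 0.057 to 0.14). SMIM10L2A, also among the 9, passed the filter through the treated libraries alone. The 9 calls fell to 5 with no filter on low values, and to 5 without control replicate 2, BMH-21 replicate 1 or BMH-21 replicate 2. Over all genes 2018 were higher with no filter, and 1869, 1777 and 1654 without those libraries in turn.

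SMIM11 is one of several genes on chromosome 21 that GENCODE release 29 lists in a pair of near-identical copies, and the first copies were compared. CBS, which encodes cystathionine beta-synthase of cysteine synthesis, shares 55.9% of its stretches of 31 bases with its copy CBSL. It was at 0.12, 0.06 and 0.02 TPM in controls and at 1.89, 2.14 and 1.99 TPM after BMH-21. Its ratio of means was 29.6, the next largest after SORCS2 among genes kept. It passed the filter through the treated libraries alone, so no limma test is given for it. U2AF1, which encodes a splicing factor that recognises the end of introns and shares 96.3% with U2AF1L5, was at 180 ± 17.7 and 154 ± 12.1 TPM and was not called (limma adjusted p = 0.10). SIK1, a kinase gene that shares 87.3% with SIK1B, was at 2.45 ± 0.28 and 3.30 ± 0.87 TPM (adjusted p = 0.23), and GATD3, which shares 33.5% with GATD3B, at 58.2 ± 2.54 and 62.1 ± 5.51 TPM (adjusted p = 0.49). These 3 were not called, where 36.4% of genes kept were called in either direction. An exact two-sided permutation test over libraries gave p = 0.10 for SIK1, the smallest that 3 against 3 allows, 0.20 for U2AF1 and 0.40 for GATD3. For CBS the way it passed the filter fixed the outcome of that test, so it is not given. No row of the deposited values carries the symbol of a second copy, so a sum over both copies cannot be given for SMIM11 or CBS.

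**Figure D4:**
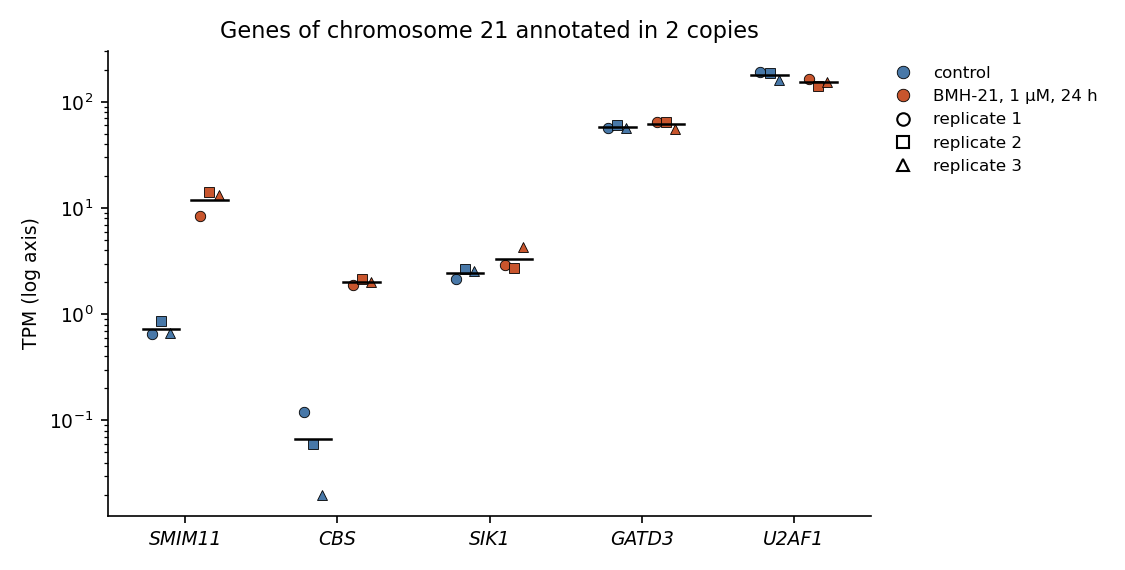
Level in TPM (log axis) of 5 genes that GENCODE release 29 annotates in 2 copies on chromosome 21; points are libraries, shapes are replicate numbers and bars are group means (n = 3). SMIM11 and CBS start under 1 TPM and are higher after BMH-21, while SIK1, GATD3 and U2AF1 differ by 1.35-fold or less.

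No neighbour that passed the filter differed as much on the log2(TPM + 1) scale as the 4 genes did. By the ratio of means KRTAP2-1, which did not pass, differed by 10.5-fold (0.108 to 1.13 TPM), more than the 7.57-fold of CPA4, and KRTAP3-1 by 6.44-fold. The 5 measured genes on each side of each member made 40 neighbours, of which 14 passed the filter, 4 were higher and 1 lower, where 19.4% of genes kept were higher and 16.9% lower. KRTAP3-1 is 1 of those 4. The median log2 fold change was 0.39, against 0.06 over all genes. With 3 scalings between libraries (trimmed mean, median of ratios and quantile), 7 were higher. Over all genes 2423, 2342 and 2970 were then higher, in place of 2340. Near SORCS2, GRPEL1, a factor of mitochondrial protein import that lies 124.3 kb away, rose, with means of 74.8 ± 3.06 and 107 ± 11.5 TPM (SD, n = 3), a difference of 0.50 on the log2 scale (SE 0.09, limma, adjusted p = 0.0035). AFAP1 and AFAP1-AS1, the nearest genes downstream of SORCS2 at 15.9 and 11.3 kb, were not called (0.05 and 0.20). PSAPL1, which lies inside SORCS2 on the other strand, was at 0.07 to 0.10 TPM in every library of both groups. SORCS2 also holds the microRNA genes MIR4798 and MIR4274, which were not analysed here.

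Around CPA4 the nearest kept gene, CEP41, 69.6 kb away, had a log2 fold change of 0.47 and was not called (limma adjusted p = 0.094), but passed as higher with the 3 scalings (adjusted p = 0.021 to 0.044). MEST, an imprinted gene of this region, was at 13.5 ± 2.42 and 14.7 ± 1.04 TPM (SD, n = 3; limma adjusted p = 0.55). TMEM209, a nuclear envelope protein gene, fell, with means of 5.5 ± 1.48 and 2.78 ± 1.38 TPM (log2 fold change -0.81, adjusted p = 0.048). That call was lost without control replicate 2 or 3 or BMH-21 replicate 1 or 2 (adjusted p = 0.13 to 0.15). Around SMIM11, MRPS6, a mitochondrial ribosomal protein gene 232.4 kb away, rose, with means of 85.0 ± 4.86 and 121 ± 1.62 TPM (adjusted p = 0.00098). RCAN1, an inhibitor of calcineurin 105.3 kb away, was at 0.64 and was not called (adjusted p = 0.054). It passed as higher with the 3 scalings (adjusted p = 0.0094 to 0.02), a replicate block (0.016) and a pseudocount of 5 (0.049). With a filter at 5 TPM it also passed, just under the threshold (limma adjusted p 0.05 when rounded). The same held without control replicate 3 (0.04), and without both control replicate 1 and BMH-21 replicate 3 (0.044). Without any other 1 library RCAN1 was not called (adjusted p = 0.077 to 0.12). KCNE2, 4.1 kb upstream of SMIM11, was at 0.06 to 0.28 TPM, and C21orf140, which lies inside SMIM11 on the other strand, at 0 to 0.38 TPM. Since strand use is not given, reads of SORCS2 and PSAPL1, or of SMIM11 and C21orf140, cannot be assigned with certainty where they overlap.

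**Figure D5:**
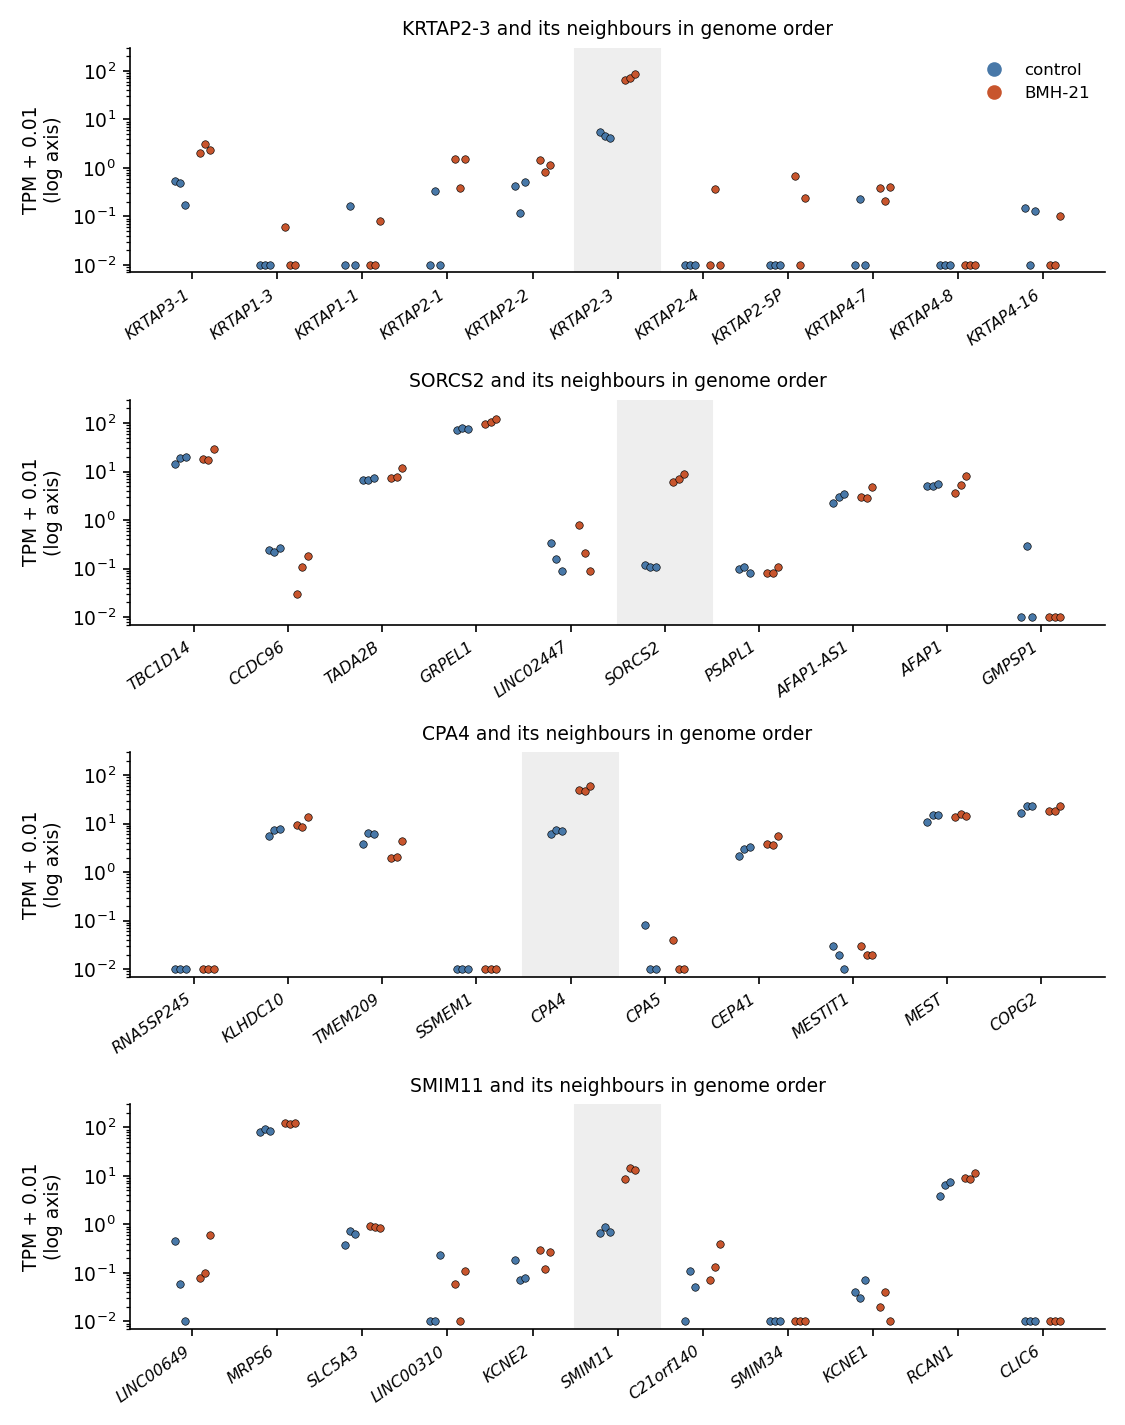
Level in TPM plus 0.01 (log axis) of each member, shaded, and measured neighbours on each side in genome order, with 1 point per library (n = 3 per group). The step from control to BMH-21 at each shaded gene is larger than at any neighbour that passed the filter, such as KRTAP3-1 (1.33) and MRPS6 (0.51 on the log2 scale).

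Promoter sequence was available for KRTAP2-3, CPA4 and SMIM11, the 250 bases before the annotated start in RefSeq (GRCh38.p14), and is printed because all 3 were low in controls and higher after BMH-21. Capitals mark the TATA box TATAAA, the AP-1 motif TGANTCA and the TEAD motif GGAATG, searched on both strands.
KRTAP2-3: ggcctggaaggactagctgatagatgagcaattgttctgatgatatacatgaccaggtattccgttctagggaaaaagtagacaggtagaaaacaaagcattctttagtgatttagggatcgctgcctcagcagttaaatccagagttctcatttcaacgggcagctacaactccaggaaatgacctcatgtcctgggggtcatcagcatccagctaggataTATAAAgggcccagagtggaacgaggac
CPA4: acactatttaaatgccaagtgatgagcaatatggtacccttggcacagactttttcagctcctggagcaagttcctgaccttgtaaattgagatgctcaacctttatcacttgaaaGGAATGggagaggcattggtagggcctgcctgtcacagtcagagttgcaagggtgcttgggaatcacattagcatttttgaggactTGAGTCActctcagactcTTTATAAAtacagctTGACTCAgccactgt
SMIM11: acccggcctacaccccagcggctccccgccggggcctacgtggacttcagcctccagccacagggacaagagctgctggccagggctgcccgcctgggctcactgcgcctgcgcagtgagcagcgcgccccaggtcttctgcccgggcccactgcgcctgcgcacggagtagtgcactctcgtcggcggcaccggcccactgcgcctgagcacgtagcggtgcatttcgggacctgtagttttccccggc
They lie at chr17:41060115-41060364 on the minus strand, chr7:130292911-130293160 on the plus strand and chr21:34375257-34375506 on the plus strand. TATAAA begins 28 bases before the start of KRTAP2-3 and, in a pair of overlapping matches on opposite strands, 30 and 28 bases before that of CPA4. This motif was present in 11.1% of 27305 promoters of the same length. CPA4 has 2 matches to TGANTCA, beginning 48 and 15 bases before the start, where 6.6% of promoters have at least 1, and 1 match to GGAATG, which 11.9% have. KRTAP2-3 and SMIM11 have neither of these, and SMIM11 has no TATAAA either. The GC box, GGGCGG, was found in none of the 3 and in 42.3% of all promoters, and CACGTG in none of the 3 and in 6.5%. CCAAT and the decamer of the p53 response element were each found once in CPA4, and in 33.0% and 5.5% of all promoters. No motif searched was found in all 3, and a match in these letters does not show that a factor binds there.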

How the data were processed

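RNA-seq of HCT116 cells was analysed from the TPM values the authors deposited, 1 column per library and not pooled. The submitters' processing notes list STAR, Salmon and GRCh38 with no version or role. Which annotation and strand option were set is not given in the sources used here. Ribosomal RNA was removed with a Ribo-Zero kit per the labels' protocols, while another label names polyA RNA. Read depth cannot be had from TPM, so no counting interval is given. TPM totals were 990744 to 992038 per library, and 11509 to 12001 genes reached 1 TPM.

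The limma package (3.58.1, R 4.3.3) was fitted to log2(TPM + 1), with an intensity trend and no covariate, over 12041 genes with at least 1 TPM in at least 3 libraries. Tests were two-sided, with Benjamini-Hochberg adjustment over all genes kept and a threshold of 0.05. The series calls the replicates biological; nothing else says how they were separated.

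The members and lists were chosen with earlier results of these data known. Named were all kept genes of the VPS10P and neurotrophin, M14 and chromosome 21 copy lists, the KRTAP2 genes, up to 4 called genes of the keratin-associated, hair keratin and SMIM lists with the largest log2 fold changes, neighbours that were called or overlap a member, and each member's 5 nearest profiles. Other neighbours, markers and unkept list genes were named after their values were seen. Alternatives were other pseudocounts, filters and scalings, no mitochondrial genes, no trend, a replicate block, summed KRTAP2 copies and left-out libraries. Coordinates, copies and stretches of 31 bases come from GENCODE release 29 (GRCh38), and promoters from RefSeq. Of 25662 symbols, 25594 were matched to that annotation. The main fit did not pair same-numbered libraries, which did not deviate together (correlations 0.04, -0.14 and 0.02). Whether they were paired by design is unknown. A few genes that this rule would name are not reported here, nor drawn among the neighbours.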

Additional observations from a re-analysis of the deposited data

How the results depend on the processing

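Each of the 4 genes stayed higher after BMH-21 under every alternative run, a direction that their choice and the gap between the groups had fixed. Their log2 fold changes moved mostly with the pseudocount. At 0.1 they were 3.95 for KRTAP2-3, 5.17 for SORCS2, 2.90 for CPA4 and 3.85 for SMIM11, and at 5 they were 3.02, 1.26, 2.26 and 1.56. SORCS2 was at 3.20 with mitochondrial genes left out of the total, and CPA4 at 2.60 in the fit of the 4 libraries other than control replicate 1 and BMH-21 replicate 3. Leaving out 1 library at a time gave 3.6 to 3.82 for KRTAP2-3, 2.76 to 3.01 for SORCS2, 2.66 to 2.81 for CPA4 and 2.76 to 3.10 for SMIM11. In those fits the filter asked for 2 libraries, the size of the smaller group.

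Counts of related genes were small and moved with the settings. With no filter, 2 keratin-associated protein genes, 4 hair keratins and 5 SMIM genes were higher. There 1 gene of the SORCS2 list, 1 carboxypeptidase, 1 SMIM gene and 0 neighbours were lower. Over all 21753 genes fitted with no filter, 2018 were higher and 1926 lower. A filter at 5 TPM removed KRTAP3-1, KRT32, AGTPBP1, CBS and TMEM209, so these were not tested there and their calls were not lost in a test. With them gone, 0 keratin-associated protein genes, 0 hair keratins, 1 carboxypeptidase and 0 genes of the chromosome 21 pairs were higher. That filter left 0 neighbours lower, and over all 8514 genes it kept, 1957 were higher and 1728 lower. With trimmed mean, median of ratios or quantile scaling, 7 neighbours were higher and 1 SMIM gene was lower. Over all genes those scalings gave 2423, 2342 and 2970 higher, and 2458, 2493 and 2425 lower. Neighbours called lower also came to 0 with a pseudocount of 0.1, without mitochondrial genes and with no variance trend. Over all genes those settings gave 2027, 1999 and 1939 lower. Without mitochondrial genes 2 keratin-associated protein genes were higher, which passed the filter through treated libraries alone, and 2227 over all genes. In that fit of 4 libraries, 4215 of all genes were lower and 2943 higher, in place of 2040 and 2340. There 1 carboxypeptidase, 2 SMIM genes and 2 neighbours were lower. Without 1 library in turn, 1 to 3 keratin-associated protein genes (3 without BMH-21 replicate 2), 0 to 1 hair keratins, 1 to 2 carboxypeptidases and 5 to 9 SMIM genes were higher. The keratin-associated protein genes and KRT32 in these counts reached 1 TPM in treated libraries alone, so they had to differ and their counts test nothing. KRTAP2-1 and KRTAP2-2 passed in this way without BMH-21 replicate 2. In those fits 1 to 2 genes of the SORCS2 list, 0 to 2 SMIM genes and 0 to 1 neighbours were lower. Over all genes, 1654 to 2317 were higher there and 1519 to 2857 lower.

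A replicate block left 1 carboxypeptidase higher, AGTPBP1 being lost (adjusted p = 0.056), and gave 2503 genes higher and 2105 lower over all genes. The correlations of same-numbered libraries were 0.04, -0.14 and 0.02. The sums over copies planned for SMIM11 and the chromosome 21 pairs were not run, because no row of the deposited values carries the symbol of a second copy. The cause of these shifts was not tested. Depth is unknown, so no counting error can be given for levels near or under 0.1 TPM, such as SORCS2 in controls.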
